A study of Mus musculus with 4 samples.

Results

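The genes examined were 4 keratins of simple epithelia (Krt7, Krt8, Krt18 and Krt19) and vimentin (Vim), the intermediate filament gene of mesenchymal cells, 5 of the 53465 gene IDs in the count table. They were chosen by Ensembl ID, for the contrast between epithelial and mesenchymal filaments, and the pairing of IDs with symbols came with that choice: Krt7 is ENSMUSG00000023039, Krt8 ENSMUSG00000049382, Krt18 ENSMUSG00000023043, Krt19 ENSMUSG00000020911 and Vim ENSMUSG00000026728. Neither the count table nor the gene table used beside it pairs Ensembl IDs with symbols, so the pairing could not be checked here. All 5 IDs had a row in the table, and 1 of them, Vim, passed the filter on low counts.

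Ribosome profiling counts the RNA fragments that ribosomes shield from nuclease, called footprints, so a gene's count follows both the amount of its mRNA and how densely ribosomes sit on it. The cells were MLE-12, mouse lung epithelial cells made immortal by the large T antigen of SV40, which the series treats as alveolar type 2 cells. The groups were 2 libraries of cells given 1-nitropyrene at 5 µM for 12 h, a nitro-substituted pyrene found in diesel emissions (replicates 2 and 3), and 2 libraries of control cells without the compound (replicates 1 and 2). All libraries came from this 1 line and were rinsed with cycloheximide, a drug that stalls ribosomes on the mRNA. The labels do not say whether replicate libraries were grown separately, so each p-value rests on a spread that may be only technical.

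Intermediate filaments give a cell mechanical strength. Keratins form them only as pairs of a type I and a type II chain; Krt8 and Krt7 are type II, Krt18 and Krt19 are type I, and Krt8 with Krt18 is the usual pair of simple epithelia, lung alveolar cells included. Vimentin is a type III protein that assembles with itself, is the main filament of fibroblasts and other mesenchymal cells, and is widely used as a marker of epithelial-mesenchymal transition, in which epithelial cells lose keratins and junctions. Many epithelial lines also express vimentin in culture.

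In the RefSeq annotation of GRCm38.p6, the assembly that the mm10 build of the processing notes corresponds to, Vim lies on chromosome 2 at 13574311 to 13582826. Krt7 (101412403 to 101427806), Krt8 (101996711 to 102004342) and Krt18 (102028216 to 102032026) lie on chromosome 15 and Krt19 on chromosome 11 at 100140810 to 100145926. All 5 are protein-coding, and 0 other RefSeq genes overlap the span of any of them. Footprints were counted on Vim and on none of the keratins. The 250 bases before the start of Vim and the partner genes Krt8 and Krt18 are shown, 5′ to 3′ on the gene's own strand. They are chr2:13574061-13574310 (plus strand), chr15:102004343-102004592 (minus strand) and chr15:102027966-102028215 (plus strand). Capitals mark matches on either strand to any of 4 short motifs. The TATA box was searched as TATAA, and the GC box, known for binding Sp1, as GGGCGG. The CCAAT box, known for binding NF-Y, was searched as CCAAT, and the AP-1 site, where N is any base, as TGANTCA.
Vim: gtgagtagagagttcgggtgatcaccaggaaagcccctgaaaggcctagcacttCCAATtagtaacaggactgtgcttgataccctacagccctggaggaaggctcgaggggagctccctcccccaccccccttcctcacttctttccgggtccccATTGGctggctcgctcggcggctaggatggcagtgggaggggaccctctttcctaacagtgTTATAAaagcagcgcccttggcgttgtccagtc
Krt8: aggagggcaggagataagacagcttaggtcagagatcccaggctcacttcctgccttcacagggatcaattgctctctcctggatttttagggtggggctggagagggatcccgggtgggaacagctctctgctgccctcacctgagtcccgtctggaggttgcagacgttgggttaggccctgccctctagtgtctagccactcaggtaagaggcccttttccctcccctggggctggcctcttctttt
Krt18: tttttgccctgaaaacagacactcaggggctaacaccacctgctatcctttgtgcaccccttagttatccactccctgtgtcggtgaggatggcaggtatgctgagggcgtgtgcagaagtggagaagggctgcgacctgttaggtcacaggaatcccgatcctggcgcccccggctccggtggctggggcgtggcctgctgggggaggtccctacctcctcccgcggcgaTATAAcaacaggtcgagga

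The Vim window held the TATA letters on both strands in overlapping matches, the one on the gene's strand ending 28 bases before the start, and the CCAAT letters in 2 places, 1 on each strand. The Krt18 window held the TATA letters once, ending 15 bases before the start, and the Krt8 window held none of these letters. The Krt7 window, not shown, was 66% G or C and held the GC box letters in 4 places. No window was available for Krt19. Of all 32851 RefSeq windows of the same length, 22.8% held the TATA letters, 33.8% the CCAAT letters, 32.7% the GC box letters and 6.75% the AP-1 letters. The windows were 58.4% G or C for Vim, 58% for Krt8 and 60.4% for Krt18, against a median of 52.4% over all windows. These matches describe the letters only, and no value in the count table bears on binding there.

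No footprint was counted on any of the 4 keratins in any library. Krt7, Krt8, Krt18 and Krt19 each had 0 and 0 counts in the 1-nitropyrene libraries and 0 and 0 counts in the control libraries. In contrast, Vim had 3520 and 3835 counts in the 1-nitropyrene libraries and 2919 and 2588 in the control libraries. The libraries labelled as lung epithelial thus held footprints of the mesenchymal filament gene and none of the simple-epithelial ones, in treated and control cells alike. Whether other epithelial genes were also without counts was not analysed here, since their IDs could not be matched to symbols.

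**Figure D1:**
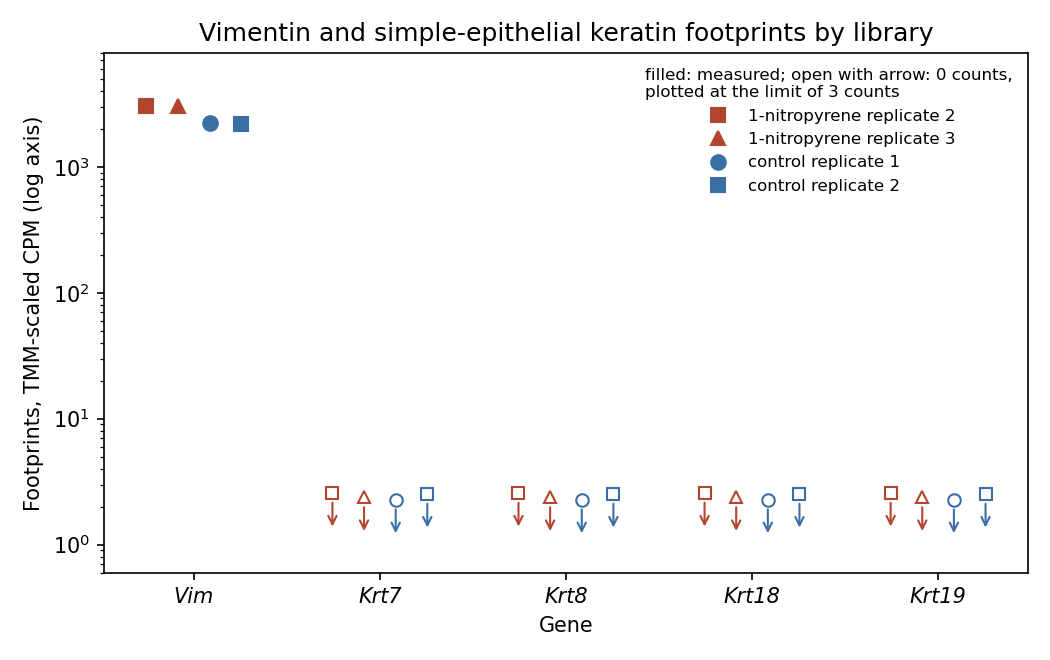
Footprint level of each gene in each library, as CPM after TMM scaling on a log axis. Filled symbols are measured values; open symbols with an arrow are keratins with 0 counts, plotted at the level that 3 counts would give, and they stand at 2.28 to 2.58 CPM in all 4 libraries.

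The depth sets what a count of 0 can show. The 1-nitropyrene libraries held 1243186 and 1357034 counts and the control libraries 1261372 and 1136145. A count of 0 allows up to 3 counts, a one-sided 95% limit. That is 2.58 and 2.38 CPM (counts per 1e6, after TMM scaling) in the 1-nitropyrene libraries and 2.28 and 2.53 CPM in the control libraries. The exact two-sided 95% limit, the kind given for Vim below, is 3.69 counts. In CPM it is 3.17 and 2.92 in the 1-nitropyrene libraries and 2.81 and 3.11 in the control libraries. Pooled over the 4 libraries, 0 of 4997737 counts allows up to 0.600 counts per 1e6 for each keratin. Such limits and the exact intervals below cover counting error only, as they are computed from the counts alone, without a spread between libraries. No molecular identifiers are recorded in the table, so any repeat counts of the same molecule are not allowed for. These values are 95% limits, so a higher level could still give 0 counts, though seldom. They are not the lowest level that could have been seen.

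Rows with 0 counts were common. Of the 53465 IDs, 39727 (74.3%) had 0 counts in all 4 libraries, so a 0 is not unusual in the table as a whole. The rows listed beside the keratins in the table were not all empty. Within 10 rows on either side of Krt8, 7 of 20 rows had a count, with a highest mean of 365.25. Around Krt18, which lies close to Krt8 on the chromosome, the figures were the same and may come from shared rows. Around Krt7 there were 5 such rows of 20, with a highest mean of 12.5, and around Krt19 there were 2, with a highest mean of 300.5. Around Vim there were 5 of 20, with a highest mean of 174.5. As most rows of the whole table were empty, these figures do not show how well the keratin positions could be counted. How reads that match several places were counted is not given in the sources used here. The RefSeq table lists 1 pseudogene under the name Krt8-ps, and its part in the 0 of Krt8 was not tested. Pseudogenes under other names, those of the other keratins included, were not searched for.

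Because the keratins had no counts in either group, no fold change with 1-nitropyrene could be given for them. The 1-nitropyrene cells showed no detectable gain of Krt7, Krt8, Krt18 or Krt19 footprints. For each of them the pooled limit was 1.15 counts per 1e6 in 1-nitropyrene libraries (0 of 2600220 counts) and 1.25 counts per 1e6 in control libraries (0 of 2397517 counts). The balance of Krt8 with its partner Krt18, and that of vimentin with the keratins, could not be expressed as ratios for the same reason.

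Vimentin footprints were more abundant in 1-nitropyrene cells. Vim stood at 3029 and 3038 CPM in the 1-nitropyrene libraries and at 2220 and 2183 CPM in the control libraries. Both 1-nitropyrene libraries were above both control libraries, and the libraries within a group lay close together. The means were 3033 ± 6.14 CPM in 1-nitropyrene cells and 2202 ± 26.0 CPM in control cells (SD, n = 2 each). Vim rose 1.38-fold (95% interval 1.31 to 1.44; log2 fold change 0.46 ± 0.035 SE, adjusted p = 2.50e-37, edgeR quasi-likelihood test with Benjamini-Hochberg adjustment over 7719 genes). Of all genes tested, 17.3% were called in either direction and 9.68% were called higher in 1-nitropyrene, and in 28.6% both 1-nitropyrene libraries lay above both controls. The shares called fell with fewer libraries: 6.78% (4.53% higher) without 1-nitropyrene replicate 2, 9.99% (5.75% higher) without 1-nitropyrene replicate 3, 9.21% (5.74% higher) without control replicate 1 and 8.84% (5.51% higher) without control replicate 2. An exact permutation test of Vim alone, two-sided over 2 libraries against 2, has a smallest possible p of 0.333.

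**Figure D2:**
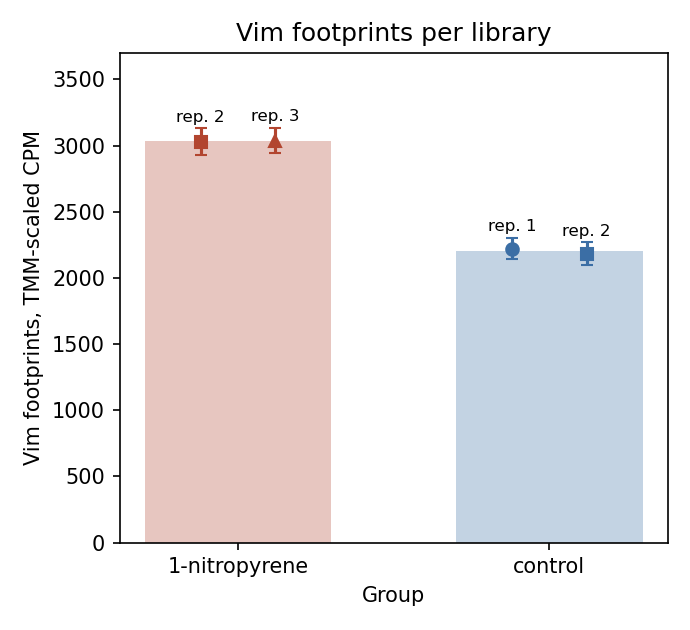
Vim footprints in CPM after TMM scaling. Bars are group means, points are libraries and error bars are exact 95% Poisson intervals of the counts, which cover counting error only; the intervals of the 1-nitropyrene libraries (2930 to 3135 CPM) lie above those of the control libraries (2100 to 2302 CPM).

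The difference was much larger than counting error. The exact 95% Poisson interval of Vim was 2930 to 3131 CPM in 1-nitropyrene replicate 2 and 2942 to 3135 in replicate 3, against 2140 to 2302 CPM in control replicate 1 and 2100 to 2269 in control replicate 2. The intervals overlapped within each group and did not overlap between groups. On the log2 scale, the 4 ratios of a 1-nitropyrene to a control library lay between 0.45 and 0.48. The ratio within a group was 0.0041 for 1-nitropyrene replicate 3 over 2 and -0.024 for control replicate 2 over 1. The SD between replicates was smaller than the counting error of a single library, so with 2 libraries a group it may understate the spread.

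As a share of all counts, Vim took 0.283% (exact binomial 95% interval 0.274 to 0.293) and 0.283% (0.274 to 0.292) in the 1-nitropyrene libraries. In the control libraries it took 0.231% (0.223 to 0.240) and 0.228% (0.219 to 0.237). The mean share was 1.23 times as high in 1-nitropyrene cells as in control cells, a smaller ratio than after TMM scaling. A pair of unnamed gene IDs held 32.9% of the counts in 1-nitropyrene libraries and 29.7% in control libraries. Without that pair Vim took 0.422% ± 3.4e-05 of the counts in 1-nitropyrene cells and 0.327% ± 0.0034 in control cells (SD, n = 2 each), a ratio of 1.29. Vim was thus higher in 1-nitropyrene cells on all 3 scales, each relative to the other counts in the library. The files hold no added standard for footprints per cell.

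Vim was among the most counted genes. By count, not corrected for gene length, it ranked 12th and 13th of all IDs in the 1-nitropyrene libraries and 14th and 15th in the control libraries. Vim is therefore one of the better measured genes, with an SE of 0.035, against a median SE of 0.049 (log2) over the 100 genes that averaged 1000 counts or more. In bulk libraries, more cells with a transcript and more transcript per cell cannot be told apart. Likewise, more Vim mRNA and denser ribosomes on it cannot be told apart from footprints alone, as RNA libraries of these cells are not analysed here.

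The size of the Vim rise was moderate for a called gene. Of the 747 genes called higher, 526 had a larger log2 fold change than Vim, and the median called increase was 1.55-fold, but only 26 had a smaller adjusted p. Genes with few counts had larger SEs and needed a larger fold change to be called, so the calling itself raises that median. With TMM scaling, genes with high counts leaned upward in 1-nitropyrene cells. Among those 100 genes of highest count, Vim included, 60.0% were called higher and the median log2 fold change was 0.20 (25th to 75th percentile 0.025 to 0.40), against -0.0076 (25th to 75th percentile -0.36 to 0.32) over all 7719 genes. With library totals the same 100 genes had a median log2 fold change of 0.035, against -0.17 over all 7719 genes. Of the 100, 44% were called higher (26 lower). How far they leaned from 0 thus depends on the scaling, but their median lay above that of all genes under both scalings. Within those 100, 19 genes had a larger log2 fold change than Vim. Vim therefore stood above the 75th percentile of genes of high count, a group in which a call of this direction was common under both scalings; whether abundance plays a part in the Vim rise was not tested.

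**Figure D3:**
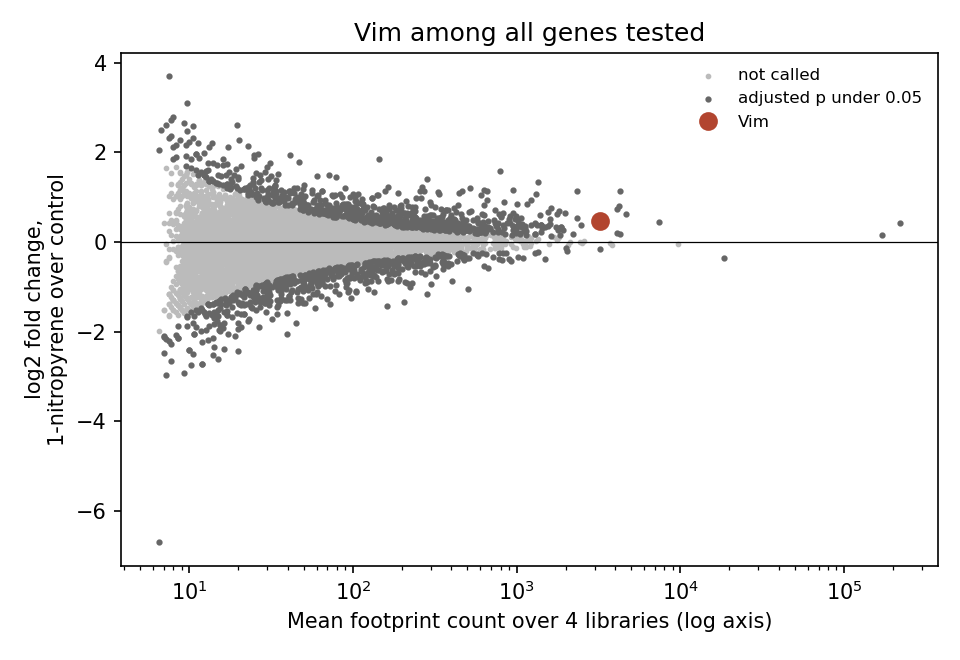
log2 fold change of 1-nitropyrene over control against mean count (log axis) for the 7719 genes tested. Dark points are genes with an adjusted p under 0.05; Vim stands at a mean count of 3215.5 and a log2 fold change of 0.46, and the keratins, with 0 counts, are not on the plot.

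The genes whose profile over the 4 libraries was most like that of Vim were sought among 3241 tested genes that averaged 50 counts or more. Likeness was the Euclidean distance between log2 CPM profiles, each centred on its own mean; with 4 libraries in 2 groups this mostly picks genes with the same fold change. The nearest was ENSMUSG00000029730 (distance 0.0050), with 198 and 215 counts in the 1-nitropyrene libraries and 163 and 145 in the control libraries. Its log2 fold change was 0.47 ± 0.14 SE (edgeR adjusted p = 0.0073). The next was ENSMUSG00000023110 (distance 0.018), with 339 and 363 counts in the 1-nitropyrene libraries and 279 and 247 in the control libraries, and a log2 fold change of 0.46 ± 0.10 SE (edgeR adjusted p = 0.00020). The sources used here give no symbol for either ID. They rose by nearly the same factor as Vim from far fewer counts, with SEs several times as large.

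Vim kept its direction and its call under every scaling, filter and test tried and with each library left out. Its log2 fold change lay between 0.30 and 0.48 under the 12 alternatives, and its adjusted p was at most 1.55e-07. The lowest value came with library totals, which called 5.31% of genes higher and moved the median of all genes tested to -0.17. That scaling moves all genes nearly alike, so the distance of Vim from the median, 0.47 with either, is set by the data before scaling and is no sign of stability. The DESeq2 Wald test, which called 8.45% of the genes to which it gave an adjusted p higher, gave Vim a log2 fold change of 0.47 ± 0.052 SE (adjusted p = 6.73e-18).

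**Figure D4:**
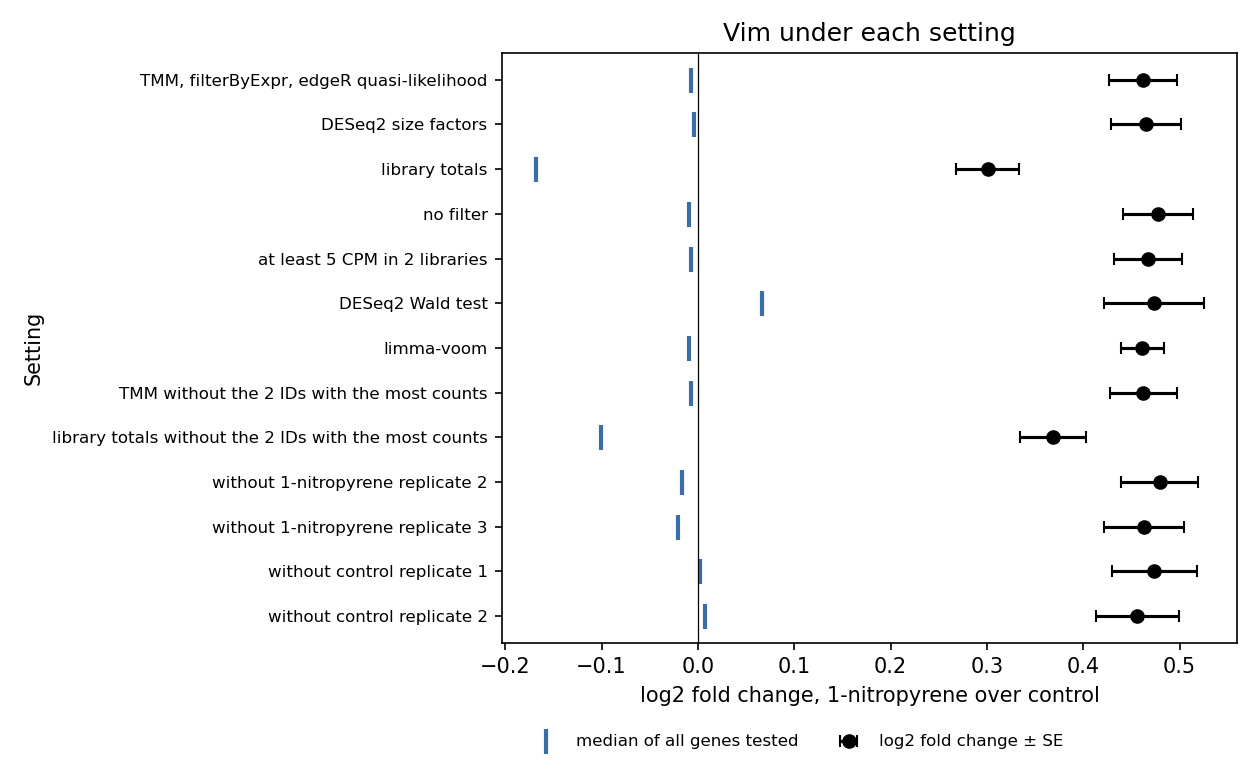
log2 fold change of Vim (points, with SE) and the median of all genes with an adjusted p (blue ticks) under the 13 settings, the top one being that of the text. The points run from 0.30 (library totals) to 0.48, and each lies above its own blue tick by 0.41 to 0.50.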

How the data were processed

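Footprints were isolated with a ribosome profiling kit, depleted of ribosomal RNA and made into small RNA libraries, per the labels' protocols. The authors deposited 1 table of whole-number counts per Ensembl gene ID, with no normalization. The submitters' processing notes name cutadapt, Bowtie, HISAT2, featureCounts, DESeq2 and mm10, and no versions or settings; the gene annotation and any use of strand are not given in the sources used.

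The 5 genes and the lists were chosen with earlier results of these data known. Counts were filtered with filterByExpr (minimum count 10, minimum total 15), scaled with TMM and tested as 1-nitropyrene over control with edgeR's quasi-likelihood test (R 4.3.3, edgeR 4.0.16). A gene was called below 0.05 after Benjamini-Hochberg adjustment. Standard errors were derived from the fold change and F, and the prior degrees of freedom were infinite. The fit was tested on simulated counts. Alternatives used DESeq2 1.42.0 and limma 3.58.1. Chi-square per degree of freedom between libraries was 1.61 within 1-nitropyrene and 1.55 within control, so none was taken as a copy. Of the Ensembl IDs, 0 could be matched to the 49997 RefSeq genes, so the lists of other filament genes, filament partners and cell type markers were not analysed here; nor were levels per codon, as protein lengths were not used. The genes named are the 5 chosen and, for each that averaged 50 counts or more, the 2 with the nearest profile. The table held 0 sample columns outside these 4 libraries.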

Additional observations from a re-analysis of the deposited data

How the results depend on the processing

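Vim kept its direction and its call under all 12 alternatives: DESeq2's size factors, library totals, no filter, 5 CPM or more in 2 libraries, limma-voom, the DESeq2 Wald test, TMM and library totals without the 2 IDs with the most counts (both chosen after seeing the data), and each library left out. When each library was left out in turn, log2 fold changes were 0.46 to 0.48; the group with 1 library then borrows its spread from the other. The number of genes called, 1332 with TMM and edgeR, was 315 with the DESeq2 Wald test and 572 to 834 with 1 library left out; fewer samples enter the last of these, and for DESeq2 the cause was not tested. Library totals called 410 genes higher of 1508 (TMM 747 of 1332). No paired analysis was possible because 2 is the only replicate number found in both groups. Fold changes of the keratins and the ratios of Vim to keratins and of Krt8 to Krt18, with their alternatives, were not run because all keratin counts are 0. For the keratins, depth gives upper limits only.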
